A study of Mus musculus with 3 samples.

Results

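Transcript levels in Hepa1c1c7 cells, a mouse hepatoma line, that had received a Tmem54 vector were compared with those in cells that had received an empty vector, and the differences are described by gene function and gene family. The comparison rests on 2 of the 3 samples of the series, 1 single-colour Agilent array for each vector. The remaining sample received a Cd74 vector and shares the empty-vector array as its control, so its values are only set beside the others. All 3 samples were transfected, which makes the empty-vector cells a vector control and not untreated cells. The time from transfection to harvest, the promoter of the vectors, and any selection or cloning of the cells are not given in the sources used here.

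Spots that were controls or carried an outlier mark were left out. The value of a probe was the log2 of its processed signal, a linear intensity, minus the 75th percentile of its array, and each difference below is Tmem54 vector minus empty vector on this log2 scale. Of 56605 probes, 29814 were well above background on both arrays, and these measured 14726 of the 24935 genes on the array. A gene was read by its brightest probe, and genes whose brighter signal reached 388, the median over the measured probes, are called bright here and number 9516. With 1 array per vector no difference has a replicate and none was tested. Within an array, replicate spots of a probe had a median SD of 0.036, which gives 0.051 for a difference, while the error model of the scanner software gave a median of 0.20 for the difference of a bright gene. Over all 14726 genes the differences had a median of 0.00 and a robust SD of 0.10, and that SD went from 0.28 in the dimmest of 5 equal bins of signal to 0.06 in the brightest.

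Many of the bright genes that differed belong to pathways of inflammation. NF-kB factors are held in the cytoplasm by inhibitor proteins until a cytokine or microbial signal leads to destruction of the inhibitors; their targets include chemokines that draw neutrophils and monocytes, acute phase proteins of the liver, and the inhibitors themselves, which close a feedback loop. Type I interferons act through a factor complex that contains STAT2 and IRF9 to switch on antiviral effectors and IRF7, a factor that amplifies interferon production. Hepatocytes respond to both kinds of signal, and hepatoma lines keep much of that response. Tmem54 encodes a predicted multi-pass membrane protein about which little is established.

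The Tmem54 probe, at chr4:128788699-128788758 of mm9, read 2.78 with the empty vector, where it was not well above background, and 19747 with the Tmem54 vector. The transcript was therefore at least 1494-fold higher in the Tmem54 array, a bound set by the lowest signal well above background on the empty-vector array. The probe does not tell transcript of the vector from that of the cell's own gene, and the insert is not given in the sources used here. Cd74, whose product accompanies newly made MHC class II molecules, read 26.8 and 22.4, a difference of -0.27. The label of the array matches its content.

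The hepatoma identity was checked with marker genes. Of 18 hepatocyte markers, 9 were measured, among them Alb (albumin), Afp (alpha-fetoprotein) and Trf (transferrin), and their summed signal was 89675 with the empty vector and 99601 with the Tmem54 vector. Ttr, Apoa1, Apob, Ahsg, Fgb, Fgg, Ambp, Hnf4a and Cps1 were not well above background on both arrays, so much of the mature hepatocyte programme was not measurable. Of 14 macrophage markers 6 were measured, with a summed signal of 8587 and 8690, and the defining genes Adgre1, Clec4f, Cd163, C1qa and Vsig4 were not among them. Of 11 neutrophil markers 6 were measured (22724 and 21640), without Mpo, Ngp and Ltf, and of 14 lymphocyte markers 5 were measured (5711 and 5459). Endothelial markers were measured for 6 of 12 genes (3704 and 3787), without Cdh5, Kdr and Tek. Cholangiocyte and progenitor markers were measured for 10 of 12 genes (48173 and 52655). Fibroblast and stellate markers were measured for 9 of 13 genes (91474.5 and 83179). On the empty-vector array their sum was above that of the hepatocyte markers, so the sums do not set hepatocyte markers apart from every other list. No member of these lists differed by 2-fold. In a bulk sample, fewer cells of a kind and less RNA per cell cannot be told apart.

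Few genes differed by much. With the Tmem54 vector 62 genes were at least 2-fold lower (0.421% of 14726) and 31 at least 2-fold higher (0.211%), and at 1.5-fold the counts were 217 lower (1.47%) and 112 higher (0.761%). Higher genes made up 34.0% of the differences past 1.5-fold, and 45.9% after quantile normalization of the arrays. Most of these genes were dim. Among the 9516 bright genes, 11 were at least 2-fold lower (0.116%) and 3 higher (0.0315%), and at 1.5-fold 23 were lower (0.242%) and 7 higher (0.0736%). Since the brighter array decides which genes are bright, 6 of the 11 and all 3 reach the limit only on the array where they are high. The limit was also set on the geometric mean of both signals, a choice made after seeing the data. Then 10 of 9451 genes were at least 2-fold lower (0.106%) and 1 higher (0.0106%). At 1.5-fold 21 were lower (0.222%) and 4 higher (0.0423%). Of the 10 lower genes 5, and the 1 higher gene, still reached the limit on 1 array only.

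Most of the bright genes that were lower belonged to 2 functional groups. Of the 11 bright genes at least 2-fold lower, 7 were in the lists of chemokines, cytokines, NF-kB factors and targets or acute phase proteins, and 3 were in the lists of interferon response genes. These 3 (Rtp4, Irf7 and Apol9b) reached the limit on the empty-vector array only, as did Saa3, Tnip3 and Bcl2l15. Lcn2, Cxcl1, Cxcl5, Ccl7 and Ccl2 reached it on both arrays, so no interferon gene did so at 2-fold. Apol9a, Isg15, Irf9 and Oasl1 did so at 1.5-fold. At 1.5-fold the same lists held 10 and 8 of the 23 lower genes. With the limit on the mean signal the lists held 6 and 3 of 10 genes at 2-fold, and 8 and 8 of 21 at 1.5-fold. All inflammation and interferon lists together held 222 of the 9516 bright genes, or 2.33%. They also include cytokine receptors, Toll-like and IL-1 receptor signalling, JAK-STAT factors, complement, coagulation and MHC class I genes. The lists were written with earlier results of these arrays known, so the share describes the arrays and is not independent evidence. The remaining gene of the 11 was Bcl2l15, a BCL2-like protein, at 786 with the empty vector and 374 with the Tmem54 vector, a difference of -1.08.

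**Figure D1:**
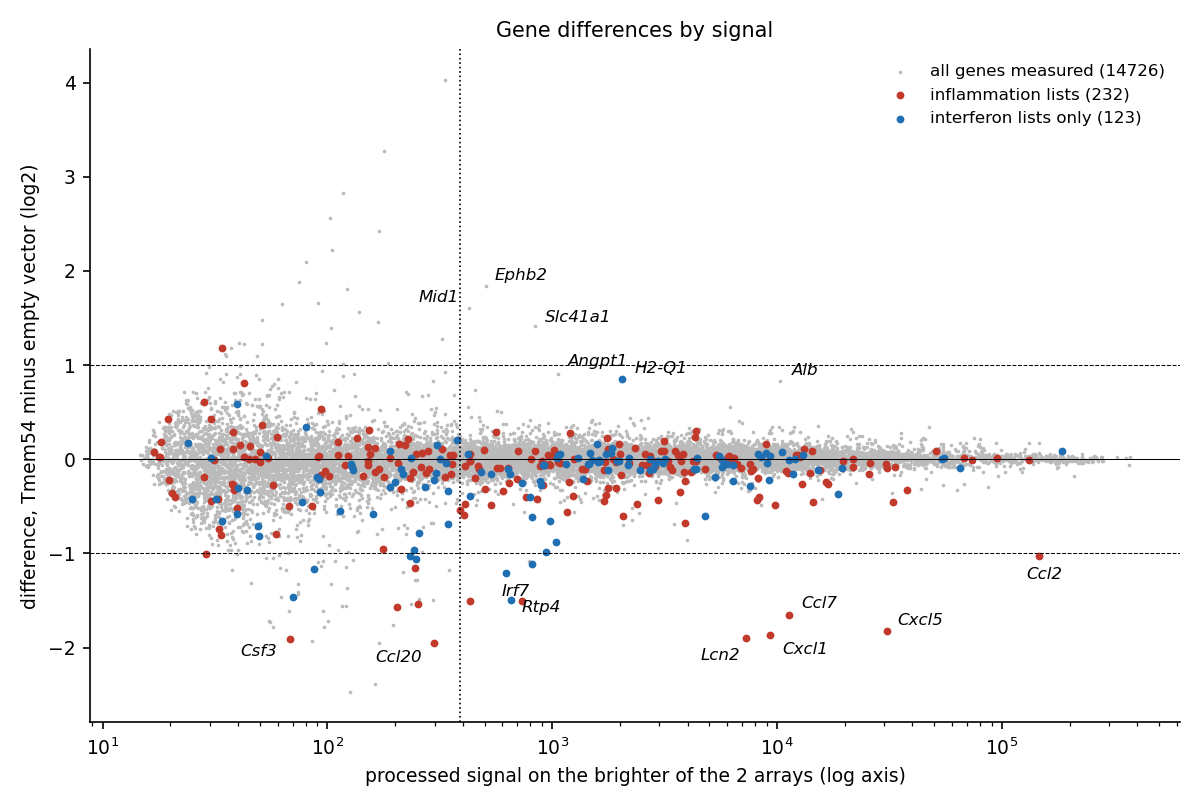
Each point is 1 of the 14726 genes. The horizontal log axis is the processed signal on the brighter of the 2 arrays. The vertical axis is the log2 difference, Tmem54 vector minus empty vector. Red points are genes of the inflammation lists and blue points genes of the interferon lists only. Dashed lines mark 2-fold and the dotted line the limit for bright genes. The cloud narrows towards high signal, and of the 11 bright genes beyond 2-fold on the lower side 10 are coloured.

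Chemokines, the secreted ligands that attract leukocytes, had the lowest median of the lists on inflammation. Of 37 listed chemokine genes 20 were measured, and 15 of them were below 0, against 49.8% of all genes; 6 were at least 2-fold lower and 1 was at least 2-fold higher. Their median difference was -0.35, and -0.45 over the 13 bright ones, beside 0.00 over all genes; of all bright genes 46.5% were below 0. By the next-brightest probe the median was -0.089, over the 4 members that have one (Ccl25, Ccl27a, Cxcl11 and Cxcl16), which include none of the 6 genes at least 2-fold lower. The list counts a neutrophil group and a monocyte group, which are described in turn, and their largest members are also shown by array in the plot of signals for named genes.

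Of the CXC chemokines that bind CXCR2 and attract neutrophils, 4 of the 5 described here were lower, to unequal degrees, and Ppbp was not. Cxcl1 read 9268 with the empty vector and 2564 with the Tmem54 vector, a difference of -1.87. Cxcl5 read 30949 and 8794, a difference of -1.83. The dimmer Cxcl2 read 252 and 87.6, a difference of -1.53. Cxcl3, which lies between Cxcl5 and Cxcl1 on chromosome 5, differed by only -0.45, from 14476 to 10696. Ppbp, the platelet basic protein, read 980 and 1202 (0.28). On the Cd74 array, Cxcl1 read 8283, Cxcl2 297 and Cxcl5 19071, which puts them at -0.10, 0.30 and -0.63 against the same control.

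Ligands of CCR2, which draw monocytes, and the CCR6 ligand Ccl20 were lower as well. Ccl2 was among the brightest genes, at 146693 with the empty vector and 72495 with the Tmem54 vector, a difference of -1.03. Its neighbour Ccl7 read 11250 and 3616, a difference of -1.65. Ccl20, which attracts dendritic cells and T helper 17 cells, read 297 and 77.3 (-1.95), the lowest value of the list. Ccl8 differed by -0.48 and the dim Ccl5 by -0.96. With the Cd74 vector Ccl2 read 168666 and Ccl7 12621, or 0.27 and 0.23 against the empty vector, so that these ligands were lower with Tmem54 and slightly above 0 with Cd74.

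Other chemokines showed that the difference did not run through the whole class. Cxcl11, a ligand of CXCR3, read 131229 and 132082 (0.00), and the membrane-anchored Cx3cl1 differed by -0.04. Cxcl10, a ligand of the same receptor as Cxcl11 and a known interferon target, read 641 and 544 (-0.25). Cxcl16 was lower by both of its probes, at -0.45 and -0.49. The highest value was that of Pf4, at 1.18, but it read 14.9 and 34.1, close to the lowest signals that counted as measured. Of the 37 genes, 17 were not well above background on both arrays.

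Promoter sequence was set beside these values because several members were lower together. The kappaB consensus was searched as GGG and TTCC with any 3 bases between them, on both strands, in RefSeq promoter windows of 300 bases (GRCm38.p6), from 250 before to 50 after the start of each gene. It occurred in 6.3% of all 27025 genes with a window, in 7.43% of the 11632 measured genes with one, in 16.7% of those at least 2-fold lower (8 of 48) and in 12.5% of those at least 2-fold higher (3 of 24). The 8 were Ccl20, Cxcl1, Cxcl2, Xaf1, Klk11, Prnd, Gm10639 and Gm36313, and they were named because they hold the match. Below are the 150 bases before the start of the 3 chemokine genes, at chr5:90891095-90891244, chr5:90903749-90903898 and chr1:83116616-83116765, all on the plus strand, with matches in capitals. Cxcl1 and Cxcl2 share an identical match at different distances from the start. Cxcl5, Ccl2 and Ccl7, which were also at least 2-fold lower, are not among the 8 genes with a match. Among the 20 lowest bright genes 13 had a window and 2 held a match (Cxcl1 and Tnfaip3). Among the 20 highest, 14 had a window and 1 held a match. A match describes the letters and is neither a binding site nor a cause.
Cxcl1: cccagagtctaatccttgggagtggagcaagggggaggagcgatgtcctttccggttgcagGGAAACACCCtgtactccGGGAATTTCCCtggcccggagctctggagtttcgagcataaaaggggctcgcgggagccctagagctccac
Cxcl2: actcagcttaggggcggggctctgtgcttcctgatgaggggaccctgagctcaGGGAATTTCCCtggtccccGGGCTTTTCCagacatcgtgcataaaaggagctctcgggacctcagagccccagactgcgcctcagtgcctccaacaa
Ccl20: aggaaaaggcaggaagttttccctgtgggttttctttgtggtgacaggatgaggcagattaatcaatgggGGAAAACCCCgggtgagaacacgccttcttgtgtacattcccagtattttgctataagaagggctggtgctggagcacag

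The colony-stimulating factors Csf2 and Csf3 were lower like the chemokines, but they were dim, as were most other cytokines. Of 41 interleukin, colony-stimulating factor and TNF ligand genes 23 were measured, with a median of -0.13; 17 were below 0, 2 were at least 2-fold lower and none was at least 2-fold higher. Csf2, the granulocyte-macrophage factor, read 204 and 69.7 (-1.56), and Csf3, the granulocyte factor, read 68.1 and 18.2 (-1.91). Csf1, the macrophage factor and the only bright member of this trio, read 32662 and 24077, a difference of -0.45, with -0.51 by its next probe. Il6, the main inducer of the hepatic acute phase, was dim at 58.9 and 34.4 (-0.79). Tnf differed by -0.19 and the macrophage inhibitory factor Mif by -0.08. None of the 6 bright members passed 1.5-fold, and their median was -0.01.

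Receptors for these ligands stayed close to 0. Of 45 cytokine receptor genes 34 were measured, their median was -0.03, and none reached 2-fold. The lowest was the atypical receptor Ccrl2, dim at 33.5 and 19.3 (-0.81), and the lowest bright one was the death receptor Fas, at 764 and 582 (-0.41). Tnfrsf1a, the main TNF receptor, read 12126 and 13184 (0.11). Toll-like and IL-1 receptor signalling genes, 20 measured of 24, had a median of 0.00, and their lowest member was Tlr2 at -0.24.

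Within the NF-kB system the lowest values were those of feedback genes. All 36 listed genes were measured; 27 were below 0, the median was -0.11, and 2 were at least 2-fold lower. Tnip3, which binds and assists the ubiquitin-editing enzyme A20, read 732 and 261, a difference of -1.50, with -1.65 by its next probe. Tnfaip3, the gene of A20 itself, read 3911 and 2464 (-0.68). Traf1, an adaptor of TNF receptors and itself a target of the pathway, was dimmer at 244 and 110 (-1.16). These genes restrain or tune the pathway and are switched on by it.

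Genes of the IkB family were lower by smaller amounts. Nfkbiz, a nuclear member, differed by -0.59 (-0.34 by its next probe), Nfkbia by -0.43, Bcl3 by -0.40 and Nfkbie by -0.38. Nfkbia, the classical inhibitor IkB-alpha, read 8140 with the empty vector, 6077 with the Tmem54 vector and 7800 with the Cd74 vector. Among the subunits, Relb differed by -0.48, Rel by -0.31, Nfkb2 by -0.24, Rela by -0.16 and Nfkb1 by -0.11. The kinase genes Chuk (0.04), Map3k7 (0.02) and Map3k14 (0.11) and the deubiquitinase Cyld (0.04) lay near 0 or above it, while the inducible kinase Ikbke was at -0.54. Of the 36 genes, 4 were at least 1.5-fold lower, namely Tnip3, Traf1, Tnfaip3 and Nfkbiz.

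Further NF-kB targets had smaller differences. Of 30 listed genes 25 were measured, 20 were below 0 and the median was -0.12, or -0.23 over the 21 bright ones. Ier3, an early survival gene, read 2071 and 1379 (-0.60) and was the single member past 1.5-fold. Tnfaip2 (-0.48), Gadd45b (-0.43) and Gch1 (-0.34) lay below 0, and Bcl2l1, an inhibitor of cell death, did not (66180 and 67537, or 0.02).

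Acute phase proteins, made by the liver during inflammation, split into a few low members and many near 0. Of 38 genes 19 were measured, with a median of -0.14 and 12 below 0, and 2 were at least 2-fold lower. Lcn2, lipocalin 2, which withholds bacterial siderophores, was the lowest bright gene of the whole comparison: its probe, at chr2:32240199-32240258 of mm9, read 7284 and 1977 (-1.89), and its next probe gave -1.98. Saa3, a serum amyloid A that is made outside the liver as well, read 429 and 152 (-1.51). Saa1, the hepatic form, was dim at 212 and 172 (-0.32), and ceruloplasmin Cp (-0.15), transferrin Trf (0.08) and the lipopolysaccharide-binding protein Lbp (0.16) stayed near 0. Cebpd, a transcription factor of the acute phase, read 3474 and 2183 (-0.68), while Cebpb differed by -0.14.

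**Figure D2:**
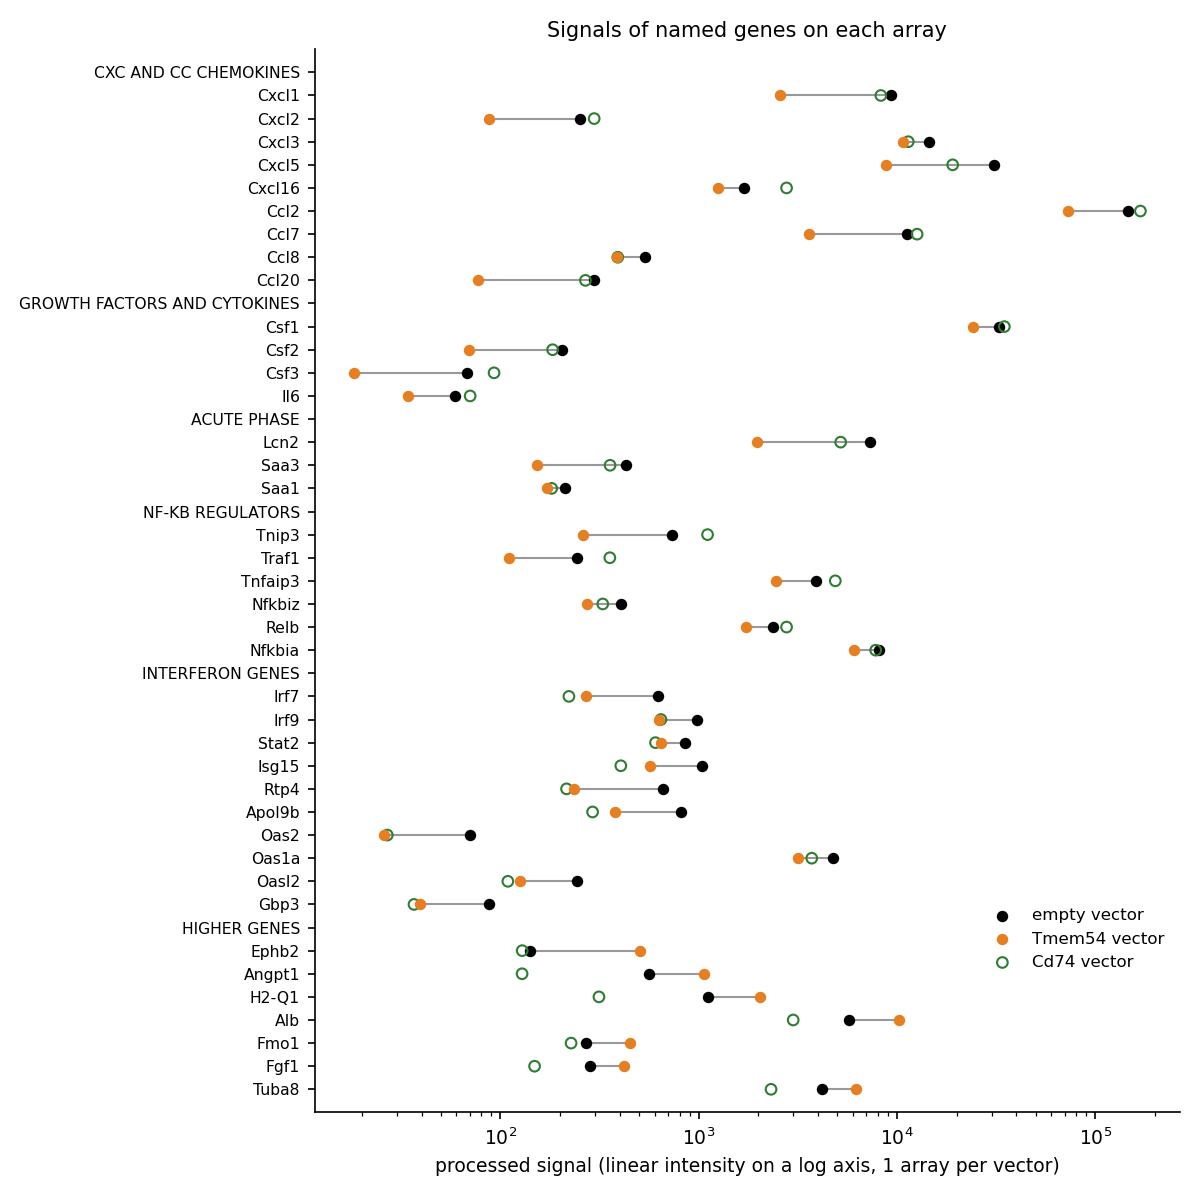
Processed signal (horizontal log axis) of named genes on the empty-vector array (black), the Tmem54 array (orange) and the Cd74 array (open green), 1 array each, with no error bar since there is no replicate. For Cxcl1, Ccl2, Lcn2 and Tnip3 the orange point lies below both others, whereas for Rtp4, Irf7 and Isg15 the orange and green points both lie below the black one.

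Interferon response genes formed the other low group. Of 69 listed antiviral effectors 54 were measured, 45 of them below 0, and the median was -0.17, or -0.11 over the 37 bright ones; 4 were at least 2-fold lower and 12 at least 1.5-fold lower, and 1, the dim Mx1 (26.1 and 39.6), was at least 1.5-fold higher. Rtp4, a chaperone of receptors and an interferon target, read 658 with the empty vector and 236 with the Tmem54 vector (-1.49). Isg15, a ubiquitin-like modifier, read 1041 and 570 (-0.88). The apolipoprotein L genes Apol9a and Apol9b read 938 and 478 (-0.98) and 811 and 379 (-1.11), and since these copies are nearly identical their probes may share signal.

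The 2-5A synthetases, sensors of double-stranded RNA, were unequal. Oas1a read 4763 and 3171 (-0.60), Oasl1 read 811 and 535 (-0.61, and -0.64 by its next probe), and the dim Oas2 read 70.6 and 25.8 (-1.47). Oas1b, by contrast, read 12632 and 13111 (0.04), although the copies of Oas1 may share probe signal too. Among the other dim effectors, Xaf1 differed by -1.03, Oasl2 by -0.96 and Slfn2 by -0.79. Bright effectors near 0 were Sp110 (0.09), Trim25 (0.00), Samhd1 (0.08) and Ifit2 (0.06), so the list was not lower throughout.

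The factors that drive these genes followed an order. Irf7 read 623 and 271 (-1.21), Irf9 read 981 and 627 (-0.66, and -0.68 by its next probe) and Stat2 read 854 and 645 (-0.42). Irf3 and the adaptors Mavs and Sting1, which are present before any stimulus, lay at 0.03, 0.03 and 0.02. Of 31 interferon signalling and sensor genes 30 were measured, with a median of -0.11 and 22 below 0. The interferon gene Ifnb1 itself was near the detection limit, at 24.9 and 18.7 (-0.43).

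Interferon-inducible GTPases, which attack the vacuoles of intracellular microbes, were low only among dim members. Gbp3 read 87.4 and 39.2 (-1.17), Irgm2 read 249 and 121 (-1.06), Gbp2 differed by -0.81 and Igtp by -0.69. The 4 bright members of the 12 measured, which include Irgm1 (-0.02) and Ifi47 (0.01), had a median of -0.01. The Ifi200 family of DNA sensors had a median of 0.02 over 6 measured genes. MHC class I and antigen processing genes, 32 measured of 36, had a median of -0.05; 20 of them were below 0. The single member past 1.5-fold on the lower side was the dim H2-T24, at 33.9 and 21.8 (-0.65), and the single one on the higher side was H2-Q1, at 1119 and 2036 (0.85), whose probe may share signal with related class I genes.

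The interferon consensus was searched as TTTC and TTTC with any 2 bases between them, on both strands, in the same windows. It occurred in 3.99% of the 27025 genes, in 10.4% of the measured genes at least 2-fold lower (5 of 48, namely Apol9b, Gbp3, Irgm2, Klk11 and Saa3) and in 4.17% of those at least 2-fold higher (1 of 24). Among the 20 lowest bright genes 13 had a window and 4 held a match (Apol9a, Apol9b, Isg15 and Saa3), and among the 20 highest 14 had a window and 0 held one. The 150 bases before the start are given for 3 of the genes, at chr4:156200819-156200968 on the minus strand and chr15:77728922-77729071 and chr3:142559894-142560043 on the plus strand of GRCm38.p6, with matches in capitals and overlapping matches joined.
Isg15: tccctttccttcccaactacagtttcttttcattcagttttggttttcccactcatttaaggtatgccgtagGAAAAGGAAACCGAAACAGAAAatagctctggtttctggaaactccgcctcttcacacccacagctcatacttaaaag
Apol9b: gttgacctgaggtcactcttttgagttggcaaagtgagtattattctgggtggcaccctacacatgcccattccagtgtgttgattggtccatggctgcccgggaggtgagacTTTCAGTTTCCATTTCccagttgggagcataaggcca
Gbp3: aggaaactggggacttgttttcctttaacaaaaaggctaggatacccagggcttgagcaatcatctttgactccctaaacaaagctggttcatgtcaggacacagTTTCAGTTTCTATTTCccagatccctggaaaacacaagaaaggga

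The same genes were set beside the Cd74 array, which shares the same control. Rtp4, Irf7 and Isg15 were at -1.49, -1.21 and -0.88 with Tmem54 and at -1.54, -1.43 and -1.30 with Cd74, and the antiviral effector list had a median of -0.17 with each vector. Tnip3, Tnfaip3 and Traf1 were at -1.50, -0.68 and -1.16 with Tmem54 and at 0.66, 0.38 and 0.61 with Cd74. Lcn2 and Saa3 were at -1.89 and -1.51 with Tmem54 and at -0.42 and -0.20 with Cd74. The list medians stood closer together than these genes. With Tmem54 and Cd74 in turn they were -0.35 and -0.16 for chemokines and -0.14 and -0.20 for acute phase proteins. For the NF-kB system they were -0.11 and 0.01. The Cd74 medians cover only members also well above background on the Cd74 array. These were 53 of the antiviral effectors, 18 chemokines, 17 acute phase proteins and 36 NF-kB genes. The shared empty-vector array enters all of these values, so a high interferon signal on that array and a lower one with both vectors cannot be told apart.

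**Figure D3:**
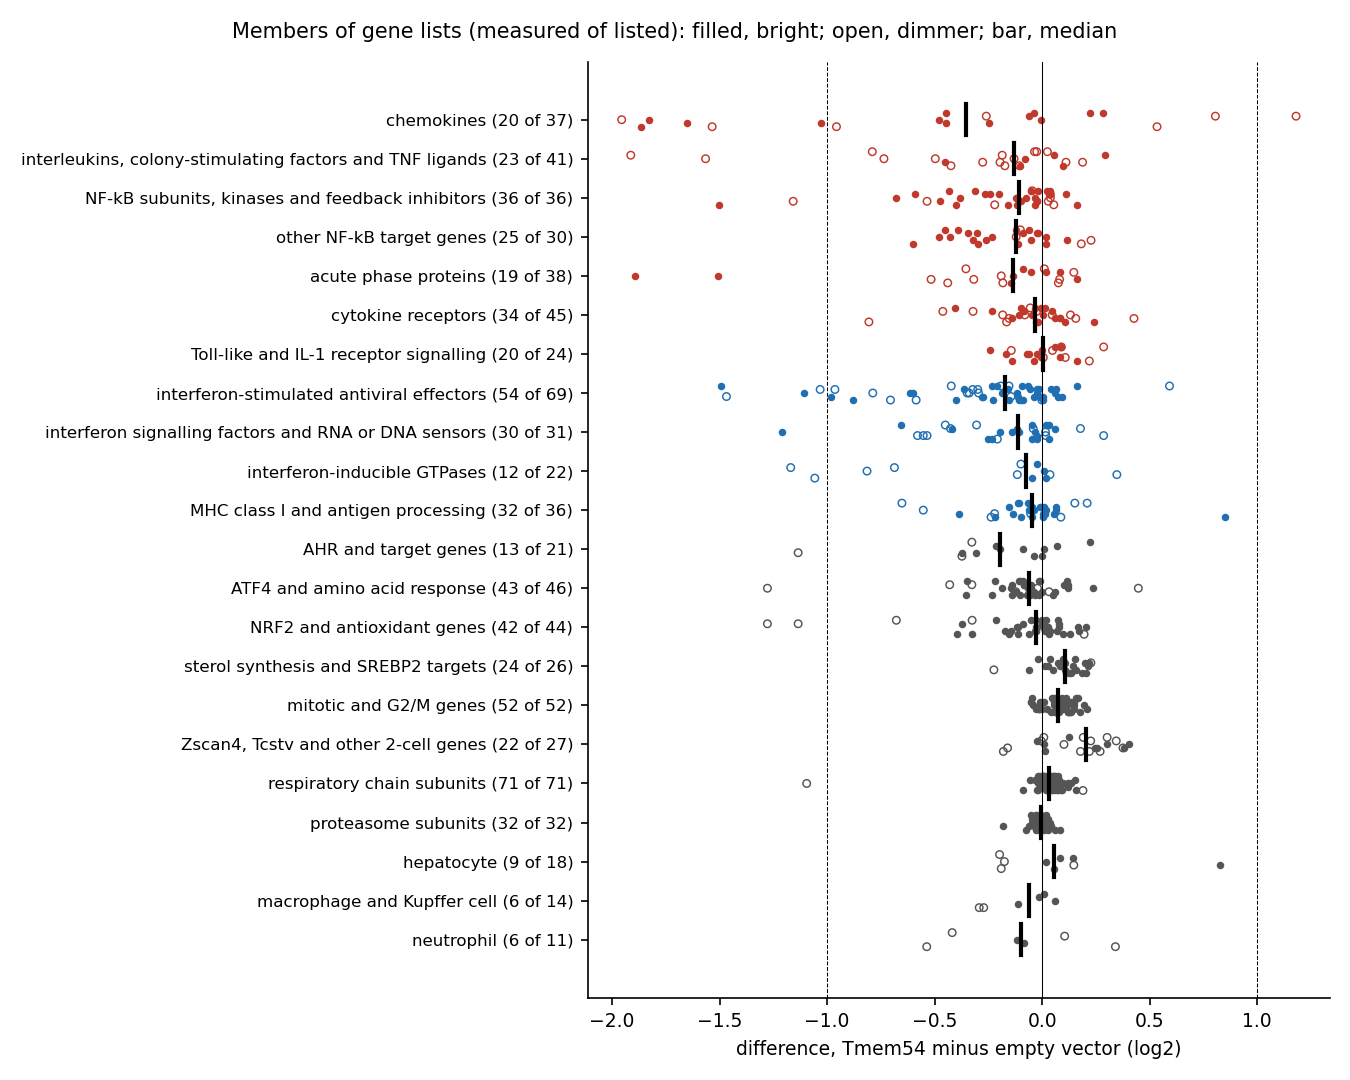
Log2 difference, Tmem54 vector minus empty vector (horizontal axis), of the measured members of gene lists, with 1 point per gene, filled for bright genes and open for dimmer ones, and a bar at the median of each list. Points of the chemokine, NF-kB, acute phase and interferon lists reach far to the left of 0, while most points of the other lists lie close to 0 with single genes apart.

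Genes of these groups lie in clusters, and the neighbours allow a comparison along the chromosome. On chromosome 5 the albumin genes precede the CXC cluster: Alb was at 0.83, Afp at 0.05 and Rassf6 at 0.09, followed by Cxcl5 at -1.83, Ppbp at 0.28, Pf4 at 1.18, Cxcl3 at -0.45, Cxcl15 at 0.81, Cxcl1 at -1.87 and Cxcl2 at -1.53, and then Mthfd2l at -0.01. Low, near-zero and high values thus alternated within the cluster, but the high ones were dim: Pf4 read 14.9 and 34.1 and Cxcl15 read 24.1 and 42.6, against a lowest signal well above background of 13.1. The 3 measured genes of the CC cluster on chromosome 11 were all below 0, with a median of -1.03. In the Oas cluster 8 genes were measured, from -1.47 for Oas2 to 0.36 for Oas1e, with a median of -0.36, beside -0.02 for 10 flanking genes.

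The epidermal gene clusters on chromosome 3 also held low values, among genes chosen after their values were seen. Sprr2e and Sprr2h, small proline-rich proteins of the cornified envelope, read 195 and 58.2 (-1.76) and 234 and 81.7 (-1.53, and -1.13 by the next probe of Sprr2h). The cluster was not lower throughout: its 10 measured genes had a median of -0.08 with 5 below 0, Sprr2a3 read 166 and 296 (0.83), and the very bright Sprr2a2 read 153602 and 155618 (0.01). Of 8 measured late cornified envelope 1 genes 7 were below 0, with a median of -0.53. Near-identical copies within both clusters may share probe signal.

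**Figure D4:**
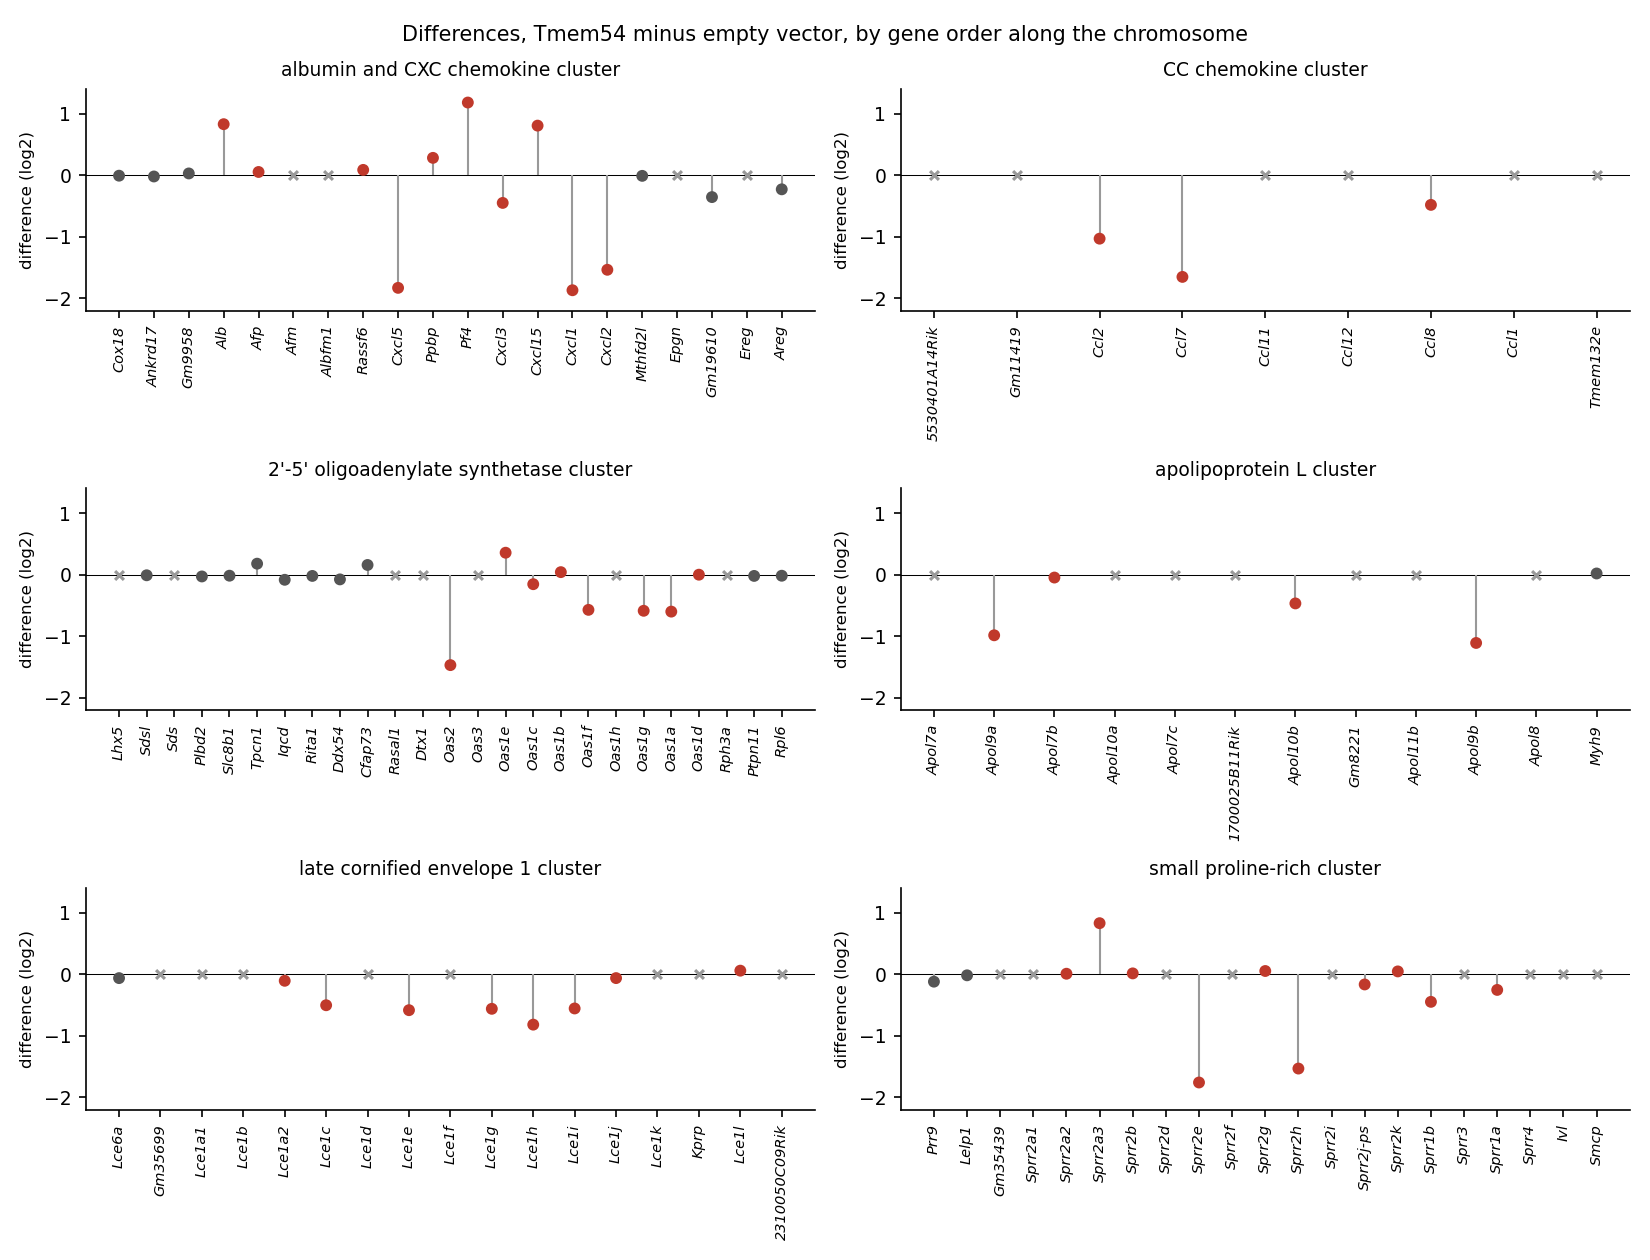
Log2 difference, Tmem54 vector minus empty vector (vertical axis), of genes in their order along each cluster (horizontal axis), with genes inside the cluster in red and flanking genes in grey; a cross marks a gene that was not well above background on both arrays. In the CXC cluster Cxcl5, Cxcl1 and Cxcl2 lie below -1 and Pf4 lies above 1, and the flanking genes of the Oas cluster sit near 0.

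Hepatocyte genes were led by albumin. Alb read 5727 with the empty vector and 10261 with the Tmem54 vector, a difference of 0.83, with 0.85 by its next probe, and 2993 with the Cd74 vector. Of 42 hepatocyte secretory and metabolic genes 21 were measured, and Alb was the single one past 1.5-fold; their median was 0.02. Among 27 measured hepatocyte transcription factors the median was 0.01; 2 were past 1.5-fold on the lower side, among them Cebpd, and none on the higher side. Foxa2 was at 0.30 and Tbx3 at 0.41, with 0.12 by the next probe of Tbx3. Foxa3, seen on the empty-vector array only and dim there at 31.6, was at least 2.29-fold lower. Of the fetal markers, Gpc3, a glypican, was at 0.33, while the imprinted genes Peg3 and Meg3, both dim, were at least 5.82-fold and at least 2.26-fold lower. Albumin and alpha-fetoprotein, which lie side by side, therefore differed by 0.83 and 0.05.

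Detoxification genes showed low values in a few members. Slc7a11, the cystine importer that feeds glutathione synthesis, read 249 and 104 (-1.28), and the glutathione transferases Gsta2 and Gsta3 read 94.0 and 43.2 (-1.13) and 294 and 185 (-0.68, and -0.58 by the next probe of Gsta3). On the Cd74 array these genes were at 1.57, 1.25 and 0.76. The list of NRF2 and antioxidant genes as a whole had a median of -0.03 over 42 measured genes. The aryl hydrocarbon receptor and its targets form a pathway for which Hepa1c1c7 cells are a standard model. Of its 21 genes 13 were measured, and 10 were below 0. The list median was -0.20, or -0.064 over the 10 bright members and -0.091 with normexp background correction. Its lowest member, and the only one past 1.5-fold, was again the dim Gsta2 (-1.13). Aldh3a1 was at -0.37, Nqo1 at -0.21 and Cyp1a1 at 0.22. Fmo1, a flavin monooxygenase, read 270 and 452 (0.73), but 0.27 by its next probe.

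Stress pathways lay near 0. The ATF4 and amino acid response list had 34 of 43 measured genes below 0 and a median of -0.06, with Trib3 (3624 and 2864, or -0.35) and Slc6a9 (-0.35) low. For Trib3 the Cd74 array read 1.61, on the other side of 0. The median was 0.03 for ER chaperones, 0.04 for heat shock genes, -0.05 for p53 targets and 0.01 for hypoxia genes, and apart from Slc7a11 no member of these 5 lists reached 2-fold. Immediate early genes had a median of -0.05, with Egr1 at -0.48 and the dim Fos at 0.32.

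Several metabolic and growth lists had small medians with most members on 1 side of 0, and others were split evenly. Sterol synthesis genes, 24 measured of 26, had a median of 0.11 with 3 below 0, among them Hmgcs1 at 0.22 and Fdps at 0.20. Mitotic genes, 52 measured of 52, had a median of 0.08 with 10 below 0, and one of 0.0023 by the next-brightest probe of the 30 members that have one; Cenpa, the centromeric histone, was at 0.21 and the factor Foxm1 at 0.19. Respiratory chain subunits had a median of 0.03 with 13 of 71 below 0, and MYC and ribosome biogenesis genes one of -0.03 with 32 of 39 below 0. The single gene of these 4 lists past 2-fold was the dim Cox6a2, a muscle form of a cytochrome oxidase subunit, at 91.1 and 43.0 (-1.09). Urea cycle and amino acid catabolism genes had 17 of 33 below 0 and lipoprotein and bile acid genes 13 of 25. Proteasome subunits had a median of -0.01.

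Genes higher with the Tmem54 vector were scattered over many functions. Ephb2, a receptor tyrosine kinase of the Eph family, was the highest bright gene: its probe, at chr4:136211203-136211262 of mm9, read 141 with the empty vector, 507 with the Tmem54 vector and 129 with the Cd74 vector, a difference of 1.84 for Tmem54. Ephb2 had only 1 measured probe and reached the limit for bright genes on the Tmem54 array only. With the limit on the mean signal it was not bright. The other 17 measured Eph receptors and ephrins did not reach 1.5-fold. Angpt1, angiopoietin 1, a ligand of the endothelial receptor Tie2, read 560 and 1060 (0.91) and was at -2.06 with Cd74. Tuba8, an alpha-tubulin, read 4175 and 6205 (0.56), and Fgf1, a fibroblast growth factor, read 283 and 420 (0.56, and 0.25 by its next probe).

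The TGF-beta, BMP and ID list had a median of -0.03, with 22 of 39 measured genes below 0; the dim Tgfb2 (26.1 and 15.1, or -0.80) was its single member past 1.5-fold. Within it Atoh8, a basic helix-loop-helix factor, read 415 and 593 (0.50), Id3 read 4813 and 5593 (0.20), and Id1 and Id2 lay at 0.02 and 0.06. On the Cd74 array Atoh8 was at -1.57. Zscan4, Tcstv and other 2-cell genes are normally active in the mouse embryo at the earliest stage of genome activation. Of 27 listed 22 were measured, 9 of them bright, with a median of 0.21 and 4 below 0. That median was 0.12 with normexp background correction, and also 0.12 by the next-brightest probe of the 3 members that have one. Zscan4f read 286 and 375 (0.38). Over the 18 members also well above background on the Cd74 array, the median with Cd74 was -1.80. Neither group held a gene past 1.5-fold with Tmem54 on the higher side.

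Among the 20 highest bright genes the probes of some disagreed in sign. Mid1, a microtubule-associated ubiquitin ligase, was at 1.61 by its brightest of 5 probes and at -0.04 by the next. Slc41a1, a magnesium carrier, was at 1.42 and -0.30, and the smaller differences of Eya3 (0.44 and -0.18) and Vamp5 (0.42 and -0.05) changed sign as well. On the lower side Wdyhv1, an N-terminal glutamine amidase, was at -0.69 and -0.09, whereas Lrig1, a negative regulator of growth factor receptors, was at -0.64 and -0.63. Of the 16 genes past 1.5-fold on the higher side that had another probe, 7 had the same sign in that probe and 2 passed 1.5-fold there. Of 18 on the lower side, 15 had the same sign and 6 passed. The next probes of Mid1, Slc41a1, Eya3 and Wdyhv1 were dim, at 183, 112, 112 and 81.5 on their brighter array, while that of Vamp5 reached 1003. Among the genes past 1.5-fold only 1 on each side had a bright next probe, and both passed 1.5-fold there.

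**Figure D5:**
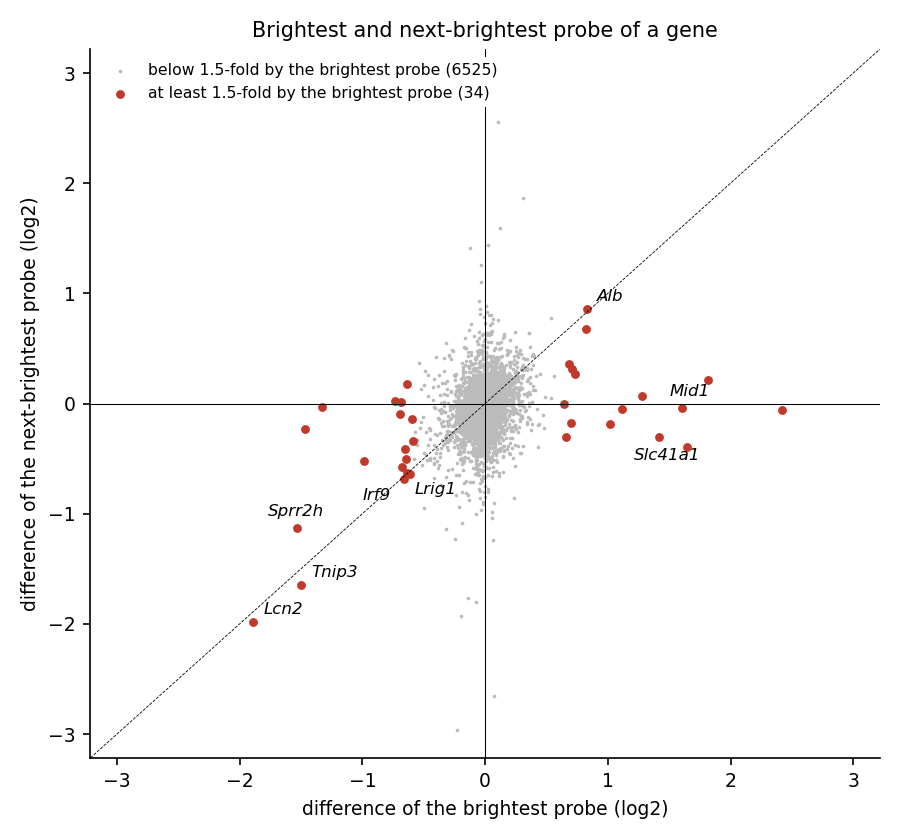
For the 6559 genes with more than 1 measured probe, the log2 difference (Tmem54 vector minus empty vector) by the brightest probe (horizontal axis) and by the next-brightest probe (vertical axis); the 34 genes past 1.5-fold by the brightest probe are marked. Lcn2, Tnip3 and Alb lie near the diagonal, and Mid1 and Slc41a1 lie far from it.

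Most gene families outside these pathways had medians near 0, though not all. The 173 measured genes named TMEM, a group defined by name and not by structure, had a median of 0.01, from -0.62 for Tmem25 to 1.01 for Tmem40, both dim. Solute carriers, 248 measured, had a median of 0.00, ribosomal proteins 0.01 and collagens 0.09. The 9 measured matrix metalloproteinases had a median of -0.23. Families inside the interferon group described above were lower, with -0.46 for the 4 measured guanylate-binding proteins and -0.32 for the 13 measured OAS and IFIT genes. Olfactory receptors, of which 134 of 1094 were measured and nearly all were dim, had a median of -0.08, close to the -0.05 of the dimmest bin of all genes.

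The largest differences of all were among dim genes. On the higher side these were the Riken clone 2810029C07Rik (4.03), the gene model Gm8013, at 18.4 and 179 (3.28), and the olfactory receptor Olfr76, at 16.4 and 117 (2.83). Named because they were the extremes of a list or family, Hoxc12, a homeobox gene, read 126 and 23.01 (-2.47), Dact1, a Wnt modulator, read 162 and 31.4 (-2.38), Foxi2, a forkhead factor, read 22.2 and 104 (2.22), and Sema3a, a repulsive axon guidance ligand, read 18.7 and 80.3 (2.09). Some genes were well above background on 1 array only and have a bound: besides Tmem54, Lrrn1 was at least 27.4-fold higher and Prkg1 at least 19.8-fold higher, and Gpam, the mitochondrial acyltransferase of triglyceride synthesis, was at least 12.4-fold lower and Pik3c2g at least 10.2-fold lower. Of genes with such a bound, 51 of 240 were at least 2-fold higher and 68 of 594 at least 2-fold lower. Each of these rests on a weak signal on at least 1 array.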

How the data were processed

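The deposited files are the scanner output of 3 single-colour Agilent arrays (mouse, probe coordinates in mm9), made with Feature Extraction 12.0.3.1 per the file headers. The authors' processed signal is a linear intensity, detrended within the array. The value table deposited by the authors holds a ratio, this intensity divided by 1 constant per array. Array labels gave the vector, with 1 array each. Of 59305 spots that were not controls, 57.2% (empty vector) and 55.7% (Tmem54 vector) were well above background, and no spot was saturated; the 75th percentile was 687 and 693.

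Outlier-marked spots were left out, the log2 intensity was centred on each array's 75th percentile, and spots of a probe were averaged (python 3.11.15, numpy 2.4.6, pandas 2.3.3). Symbols came from RefSeq by accession or symbol, and 12549 probes had none. A gene well above background on 1 array only has a bound against the lowest signal well above background, 13.1 or 13.9. With 1 array per vector no test was run. The genes named are Tmem54, Cd74, Trib3, Id3 and Atoh8, the 20 highest and 20 lowest bright genes, the 5 largest bounds per direction, members of 70 gene lists and extremes of 64 families, plus those said to be chosen later. The members and lists were chosen with earlier results of these data known. The alternatives tried were background correction by normexp, offset 50 (limma 3.58.1), median centring, quantile normalization, bright genes only (also by mean signal), other probe choices and marked spots kept. The calculation was tested on simulated data.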

Additional observations from a re-analysis of the deposited data

How the results depend on the processing

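Normexp background correction with its offset of 50, which draws dim signals together, left 22 probes at least 2-fold higher and 25 lower; for genes it left 9 higher and 18 lower at 2-fold and 28 higher and 52 lower at 1.5-fold, all of the last among the 112 and 217 counted without it. Bright probes alone gave 3 higher and 12 lower, and bright genes alone 3 higher and 11 lower at 2-fold and 7 higher and 23 lower at 1.5-fold. By the next-brightest probe, 8 genes were higher and 13 lower at 2-fold, and 47 and 77 at 1.5-fold, over the 6559 genes that have one. The Tmem54 bound was at least 300.2-fold with normexp and at least 1552-fold with quantile normalization. The chemokine median was -0.30 with normexp, -0.45 over bright genes and -0.089 by the next-brightest probe. The NF-kB median was -0.20 by the next-brightest probe and -0.17 by the mean of probes, and that of antiviral effectors was -0.11 over bright genes. Mid1 and Slc41a1 reversed by the next-brightest probe, to -0.041 and -0.30. That probe moved 14 further named genes and left 36 in place. Normexp moved 45 named genes and left 117 in place. A named gene counted as moved when its change reached the larger of the replicate-spot spread and its error-model value. The limit on the mean signal, added after seeing the data, gave 1 higher and 10 lower at 2-fold, 4 and 21 at 1.5-fold, a chemokine median of -0.45 and one of -0.11 for antiviral effectors. Of the other 67 list medians, the next-brightest probe moved 26 of the 65 it could give by more than the spread between replicate spots, the limit on the mean signal 13, bright genes alone 10, the mean of probes 9, normexp 5 and quantile normalization 2; median centring and keeping marked spots moved none. Each vector has 1 array, so culture, extraction and hybridisation cannot be told apart from the vector, and dim genes, whose differences spread most, limit what can be read. No paired analysis was possible because each vector has 1 array and no replicate number.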

Other observations

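Genes of lipid storage and turnover included a few low, dim members. Plin5, a coat protein of lipid droplets, read 130 with the empty vector and 62.2 with the Tmem54 vector, a difference of -1.07, and Nudt7, a peroxisomal hydrolase of coenzyme A, read 349 and 155 (-1.18). The list of fatty acid oxidation, peroxisome and CoA genes had a median of 0.05 over 47 measured members, and that of fatty acid and glycerolipid synthesis 0.02 over 39. Acsl1, an acyl-CoA synthetase, read 3579 and 4513 (0.32).

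Some lists of surface and matrix genes had medians slightly above 0 and others slightly below. Of 34 Ly6 and GPI-anchored surface protein genes 24 were measured, with a median of 0.08 and 8 below 0, and Psca, the prostate stem cell antigen, read 226 and 365 (0.68). Collagens and laminins had a median of 0.07 over 26 measured genes, with Col1a1, a chain of type I collagen, at 8430 and 10556 (0.31). Matrix proteases and inhibitors had a median of -0.03 over 25 measured genes, and leucine-rich repeat and axon guidance genes -0.02 over 35. On the Cd74 array Psca was at -1.73 and Col1a1 at -0.76.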
